A study of Mus musculus with 5 samples.

Results

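Platelet-derived growth factor (PDGF) genes were followed in 5 primary cultures of mouse pancreatic cells, each measured on 1 Affymetrix whole-transcript array. The family was taken by name and comprised 4 ligand genes (Pdgfa, Pdgfb, Pdgfc and Pdgfd) and 2 receptor genes (Pdgfra and Pdgfrb). All 6 were measured, each by 1 probe set annotated with that gene alone, out of 19938 genes tested. The normal ductal group held 2 cultures with floxed p53 alleles written p53L/L. The title of replicate 1 also names Pdx-1Cre, a transgene that drives Cre recombinase from the Pdx-1 promoter of the pancreatic lineage. In the PDAC group were 3 cultures of primary pancreatic ductal adenocarcinoma (PDAC) cells with Pdx-1Cre, p53L/L and, in addition, 1 floxed Apc allele (APCL/+). The floxed p53 alleles were thus common to both groups. The title of normal ductal replicate 2 reads Pdx-1 without Cre and leaves out the word ductal, and the title of PDAC replicate 3 adds the words mutant cell. The labels call the samples biological replicates and name no animals; p-values therefore reflect no more than the spread between the 5 cultures, whose number limits the precision. No age or sex of the mice is given in the labels.

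PDGFs are secreted dimers that bind receptor tyrosine kinases on neighbouring cells. PDGF-A and PDGF-B are cut inside the cell by furin-like proteases and leave it active, whereas PDGF-C and PDGF-D leave it with a CUB domain that extracellular proteases must remove. The alpha receptor binds the A, B and C chains and the beta receptor binds B and D. In most organs epithelial and endothelial cells make ligand while fibroblasts, pericytes and, in the pancreas, stellate cells carry the receptors. The growth protocol given for every sample names medium with 10% fetal bovine serum, itself a source of PDGF, and fewer than 6 passages.

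Array medians lay between 5.90 and 6.02 on the log2 scale in which all signals and differences below are given. Duct epithelial markers (10 measured of 12 listed) had mean signals of 11.63 and 11.36 in replicates 1 and 2 of normal ductal and of 7.09, 8.16 and 9.96 in PDAC replicates 1, 2 and 3, so the tumour cultures differed from one another in how much of the duct programme was measured. Apc stood at 9.23 and 9.02 in the normal ductal cultures and at 9.00, 9.06 and 8.58 in PDAC cultures (difference -0.25, SE 0.20, limma adjusted p = 0.59). Where its probes lie relative to the floxed part is not given in the sources used here, so this value does not check the genotype. The probe set of Trp53 was not analysed here. In such bulk RNA, fewer cells of a type and less RNA per cell cannot be told apart.

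The comparison of PDAC with normal ductal cultures asked which PDGF genes differ between tumour cells with a floxed Apc allele and duct cells without it. Pdgfb and Pdgfd were lower in every PDAC culture, with similar mean differences (-3.56 and -3.33). Against the normal ductal mean, single PDAC cultures ranged from -4.23 to -2.85 for Pdgfb and from -3.89 to -2.48 for Pdgfd. Pdgfa was lower by a small amount, and Pdgfc and both receptors had higher PDAC means. None of the 6 passed the limma test after Benjamini-Hochberg adjustment over all genes, a call made for 0.0552% of the genes tested (0.00502% higher and 0.0502% lower in PDAC). At an unadjusted p under 0.05, 3 of the 6 were lower in PDAC (Pdgfa, Pdgfb and Pdgfd) and 0 higher, against 6.86% lower and 6.5% higher over all genes. Signals of PDAC and normal ductal arrays did not overlap for 5 of the 6, namely 3 that were lower and 2 that were higher, beside 12.8% lower and 13.6% higher over all genes.

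**Figure D1:**
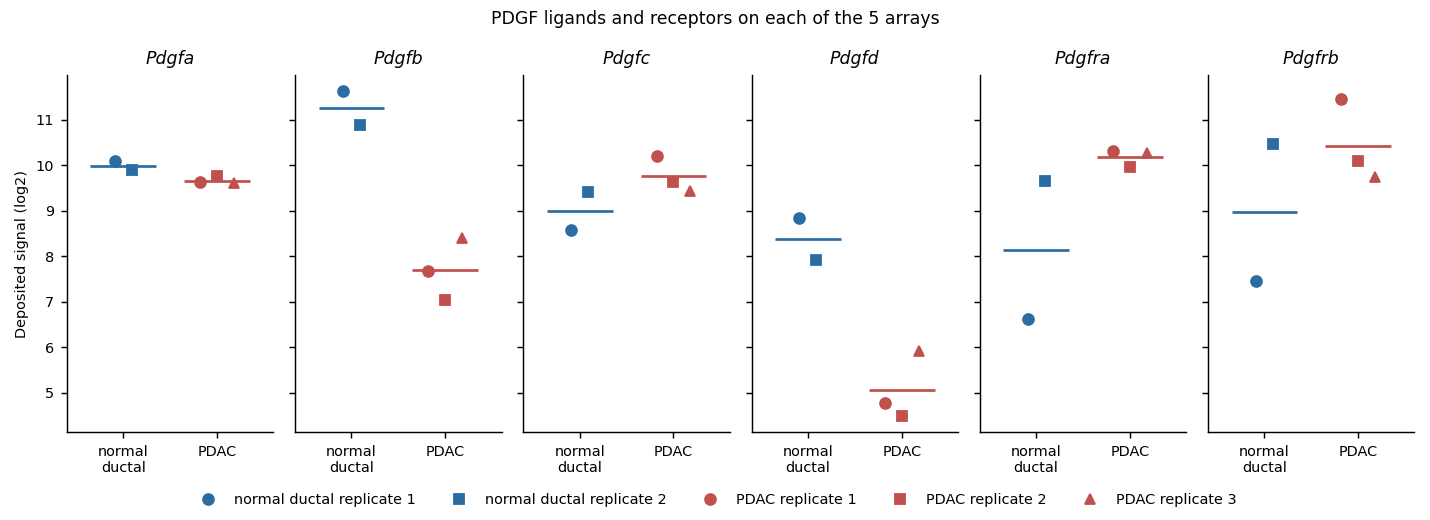
Deposited log2 signal (vertical axis) of each PDGF gene in the 2 normal ductal cultures (blue) and the 3 PDAC cultures (red); each point is 1 array, its shape gives the replicate number, and each bar is a group mean. Pdgfb and Pdgfd show a wide gap between the groups, while the receptors show a wide gap between the normal ductal arrays; signals of different genes come from different probes and are not comparable in height.

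The ligand with the largest difference was Pdgfb, which encodes the B chain that binds both receptors. Its signal was 11.63 and 10.89 in replicates 1 and 2 of normal ductal, and 7.67, 7.03 and 8.41 in PDAC replicates 1, 2 and 3. Both normal ductal arrays were thus high and all PDAC arrays low, with 2.48 between the closest arrays of the groups. The mean went from 11.26 ± 0.53 (SD, n = 2) in normal ductal to 7.70 ± 0.69 (SD, n = 3) in PDAC, a difference of -3.56 (SE 0.52, 95% interval -5.00 to -2.11), which is 11.8-fold lower in PDAC. The unadjusted limma p was 0.00253 and the adjusted p was 0.169. A count of 51 of the genes tested, 0.256%, had a difference at least this far down, Pdgfb included. In GRCm38 Pdgfb lies on chromosome 15 from 79995865 to 80024614, away from Pdgfd on chromosome 9 (6168363 to 6534284), Pdgfc on chromosome 3 (81036416 to 81214040) and Pdgfa on chromosome 5 (138976014 to 139000792). Pdgfra shares chromosome 5 with Pdgfa but lies far from it, from 75151322 to 75198206.

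Pdgfd, whose product binds the beta receptor once its CUB domain is cut off, had nearly the same pattern. Its signal was 8.85 and 7.92 in the normal ductal cultures and 4.77, 4.49 and 5.91 in the PDAC cultures. As for Pdgfb, the groups did not overlap, replicate 1 was the higher of the normal ductal arrays, and replicate 3 was the highest and replicate 2 the lowest of the PDAC arrays. The difference was -3.33 (SE 0.58, 95% interval -4.95 to -1.71), from 8.38 ± 0.66 (SD, n = 2) to 5.06 ± 0.75 (SD, n = 3), or 10.0-fold lower in PDAC. The unadjusted limma p was 0.00486 and the adjusted p was 0.195. All the PDAC values lay below 6.61, the median over genes of the mean signal. The values used here hold no detection calls, so whether signals this low stood above background cannot be told, and the size of the fold is uncertain for that reason.

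Pdgfc, the other ligand with a CUB domain, had a PDAC mean above the normal ductal mean, but the difference did not pass the test. Its signal was 8.58 and 9.41 in the normal ductal cultures and 10.21, 9.62 and 9.44 in the PDAC cultures. PDAC replicate 3 stood only 0.03 above normal ductal replicate 2, so the groups barely parted. The difference was 0.76 (SE 0.38, 95% interval -0.32 to 1.84), from 9.00 ± 0.59 (SD, n = 2) to 9.76 ± 0.41 (SD, n = 3). It did not pass the limma test (unadjusted p = 0.121, adjusted p = 0.536). Without normal ductal replicate 1 it was 0.35 and without replicate 2 it was 1.17.

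These CUB-domain ligands also differ in the letters just ahead of their genes. The stretches shown end at the base before the first annotated base of each gene, both on the plus strand of GRCm38.p6, from RefSeq, written 5′ to 3′; they are given because the genes encode ligands of 1 structural kind whose PDAC means lay on opposite sides of the normal ductal means, although the difference of Pdgfc did not pass the test. Capitals mark a match to a TATA box (TATAAA).
Pdgfc, chr3:81036166-81036415: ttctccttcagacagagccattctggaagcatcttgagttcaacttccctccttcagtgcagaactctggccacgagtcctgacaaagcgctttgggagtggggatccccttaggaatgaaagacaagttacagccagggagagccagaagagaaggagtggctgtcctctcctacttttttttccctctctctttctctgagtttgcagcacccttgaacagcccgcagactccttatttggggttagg
Pdgfd, chr9:6168236-6168362: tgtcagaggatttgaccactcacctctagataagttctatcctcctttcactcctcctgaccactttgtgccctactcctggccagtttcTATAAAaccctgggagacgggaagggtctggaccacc

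The 127 bases ahead of Pdgfd held 1 TATA box, which begins 37 bases before the gene's first base, and the 250 bases ahead of Pdgfc held none. A TATA box on either strand stood in 12.3% of all RefSeq mouse promoter windows of 250 bases. It stood in 6.28% when the windows were trimmed to the 127 bases farthest from their annotated starts. The stretch of Pdgfd is the same part of its own window, whose annotated start lies inside the gene. From that start its TATA box stands at -160. Searches on both strands for a GC box (GGGCGG), an E-box (CACCTG), an AP-1 site (TGANTCA) and a CCAAT box (CCAAT) found no match in either stretch, while 33.0%, 17.3%, 6.73% and 33.8% of the windows of 250 bases held one, as did 13.8%, 9.26%, 3.24% and 17.0% of those of 127 bases, the length shown for Pdgfd. Both windows of 250 bases ahead of annotated starts of Pdgfa held a GC box, 1 match in the first and 2 in the second. Their GC content was 66.4% and 72.4% against 50.8% for Pdgfc. These Pdgfa windows (138994282 to 138994531 and 138994945 to 138995194, minus strand) lie inside the annotated gene. They are thus not placed like the stretch of Pdgfc, which ends just before its gene. These matches describe the letters and say nothing of which factor was bound.

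Pdgfa, whose product binds the alpha receptor alone, varied least. Its signal was 10.09 and 9.89 in the normal ductal cultures and 9.62, 9.76 and 9.60 in the PDAC cultures. The groups did not overlap, but only 0.13 separated normal ductal replicate 2 from PDAC replicate 2. The difference was -0.33 (SE 0.11, 95% interval -0.63 to -0.03), from 9.99 ± 0.14 (SD, n = 2) to 9.66 ± 0.09 (SD, n = 3). Limma gave an unadjusted p = 0.0367 and an adjusted p = 0.34. Arrays at a common median gave -0.24 (unadjusted p = 0.191).

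The receptors differed most between the normal ductal cultures. Pdgfra, the gene of the alpha receptor and a widely used fibroblast marker, stood at 6.63 in normal ductal replicate 1, at 9.65 in replicate 2, and at 10.32, 9.96 and 10.27 in PDAC replicates 1, 2 and 3. The PDAC arrays lay within 0.35 of one another, and normal ductal replicate 2 lay 0.31 below the lowest of them while replicate 1 was far lower. The means were 8.14 ± 2.14 (SD, n = 2) and 10.18 ± 0.19 (SD, n = 3), a difference of 2.04 (SE 1.0, 95% interval -0.75 to 4.84). Limma gave an unadjusted p = 0.112 and an adjusted p = 0.523. Without normal ductal replicate 2 the difference was 3.56 (SE 0.20) and passed the test (limma adjusted p = 0.027), in a fit where the lone normal ductal array is assumed to vary like the PDAC arrays. Without replicate 1 it was 0.53 (adjusted p = 0.351).

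Pdgfrb, the gene of the beta receptor and a marker of pericytes and fibroblasts, stood at 7.46 and 10.47 in the normal ductal cultures and at 11.44, 10.09 and 9.73 in the PDAC cultures. Here normal ductal replicate 2 lay above PDAC replicates 2 and 3, and the groups overlapped. The means were 8.97 ± 2.13 (SD, n = 2) and 10.42 ± 0.90 (SD, n = 3), a difference of 1.45 (SE 1.15, 95% interval -1.76 to 4.67). It did not pass the limma test (unadjusted p = 0.275, adjusted p = 0.586). Against replicate 1 alone the difference was 2.96 (adjusted p = 0.29), and against replicate 2 alone it turned to -0.05 (adjusted p = 1). The direction for Pdgfrb therefore rested on normal ductal replicate 1.

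**Figure D2:**
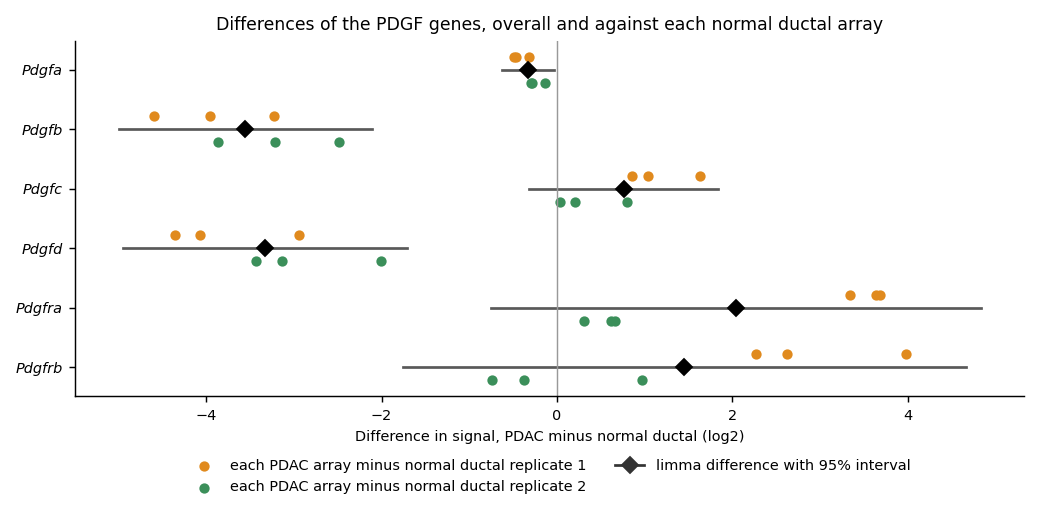
Difference in log2 signal between PDAC and normal ductal cultures (horizontal axis) for each PDGF gene; diamonds with lines are the limma difference and its 95% interval, and dots are single PDAC arrays minus normal ductal replicate 1 (orange) or replicate 2 (green). Pdgfb and Pdgfd lie left of 0 against either normal ductal array, whereas the receptors lie far right of 0 against replicate 1 and between -0.74 and 0.97 against replicate 2.

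The gap between the normal ductal arrays had a size seen in few genes. Replicate 2 exceeded replicate 1 by 3.03 for Pdgfra and by 3.01 for Pdgfrb, and a gap at least as wide, in either direction, was found for 0.256% and 0.271% of the genes tested. For Pdgfc the gap was 0.83 in the same direction. Pdgfb and Pdgfd went the other way, with replicate 1 higher by 0.74 and 0.93, and for Pdgfa replicate 1 was higher by 0.19. Among the PDAC arrays the range was widest for Pdgfrb (1.71), followed by Pdgfd (1.42) and Pdgfb (1.38).

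**Figure D3:**
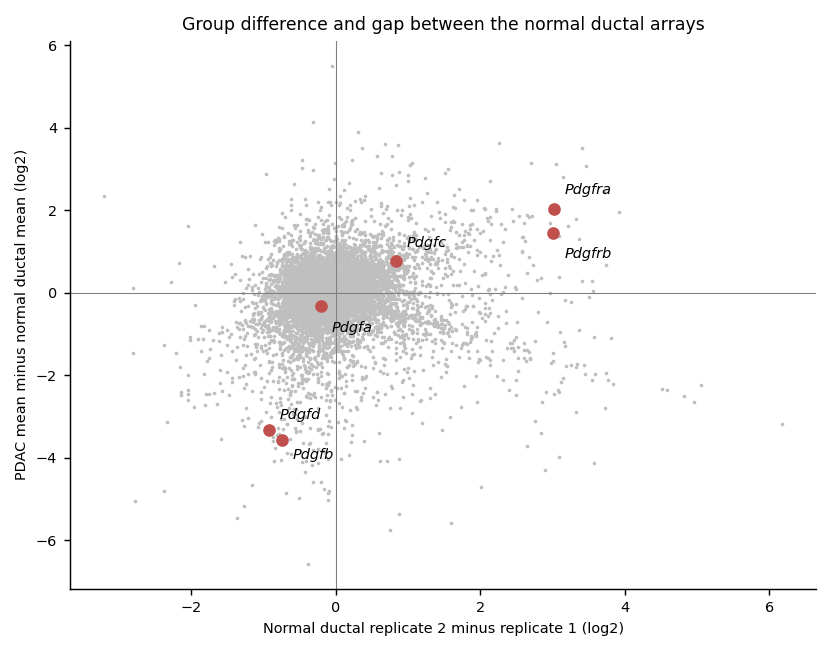
Each grey point is 1 of the 19938 genes tested, with normal ductal replicate 2 minus replicate 1 on the horizontal axis and the PDAC mean minus the normal ductal mean on the vertical axis, both in log2; red points are the PDGF genes. Pdgfb and Pdgfd sit together at a large group difference and a modest replicate gap, and the receptors sit together at replicate gaps of 3.03 and 3.01.

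Most fibroblast and stellate cell markers shared the receptors' gap between the normal ductal arrays, but they were split over the direction between the groups. The 18 measured markers had mean signals of 7.64 and 9.65 in replicates 1 and 2 of normal ductal and of 9.38, 9.01 and 8.94 in the PDAC cultures. In normal ductal replicate 2, 17 of the 18 were higher than in replicate 1, 13 of them by more than 1, while over all genes 6138 of 19938 were higher there and 584 by more than 1. The PDAC mean was higher for 10 of the 18 and lower for 8. Without overlap, 6 were higher and 1 was lower, beside 13.6% and 12.8% over all genes. The lower one was Des (-2.03), and Mfap5 had -2.41 with overlap. Among the higher ones were Col6a1 (3.23) and Col6a2 (2.22). These genes were named after their values were seen. The median difference of the 18 was 0.58, beside 0.01 over all genes, and it was 1.55 against normal ductal replicate 1 alone and 0.03 against replicate 2 alone. An unadjusted p under 0.05 was found for 3 of them (16.7%), each higher in PDAC, beside 6.5% higher and 13.4% in either direction over all genes. The most strongly measured of them, Fn1 (fibronectin) and Vim (vimentin), stood at 13.44 and 12.04 in normal ductal replicate 1 and at 12.97 and 12.84 in replicate 2. The part of such cells in the receptor values was not tested.

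Pericytes and smooth muscle cells also carry the beta receptor. Their 12 markers had mean signals of 7.14 and 7.49 in the normal ductal cultures and between 6.69 and 7.49 in PDAC cultures, and their median difference was -0.03. Without overlap, 3 of the 12 were lower in PDAC and 0 higher, beside 12.8% lower and 13.6% higher over all genes. The 3 were Mcam (-1.97), Rgs5 (-0.57) and Myh11 (-0.53). The pericyte genes differed in level. Rgs5, Kcnj8, Abcc9 and Higd1b lay at or below 5.63 on all 5 arrays, while Cspg4 reached 8.77 in normal ductal replicate 2 and 8.75 in PDAC replicate 2, and Notch3 reached 7.27 in PDAC replicate 1. Mcam stood at 11.37 and 9.55 in the normal ductal cultures and was lower without overlap in PDAC, at 9.08, 8.70 and 7.70; these genes were named after their values were seen. The contractile genes Acta2 (12.03 and 13.01 in normal ductal, 12.78 to 13.41 in PDAC) and Tagln (9.76 and 11.06, 8.50 to 11.17) were strongly measured throughout. Other smooth muscle genes of the list differed from them in level. Cnn1 lay between 8.81 and 11.85 over the 5 arrays, whereas Myh11 lay at or below 6.54 and Myocd at or below 5.30.

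Endothelial cells, platelets and leukocytes include the cells that usually make PDGF-B. Of their markers, 9 of 10 endothelial, 3 of 5 platelet and 9 of 10 leukocyte genes had lower PDAC means. Over all genes the PDAC mean was lower for 9367 of 19938. Several of these marker differences were small at low signals, such as Ptprc (-0.06), Adgre1 (-0.06) and Vwf (-0.03). In normal ductal replicate 2, where Pdgfb was lower than in replicate 1, 8 of 10 endothelial, 2 of 5 platelet and 6 of 10 leukocyte markers were higher. Over all genes 6138 of 19938 were higher there. Endothelial markers (10 measured) had means of 5.72 and 6.63 in replicates 1 and 2 of normal ductal and of 5.20 to 5.52 in PDAC, and the endothelial cadherin Cdh5 stood at 6.47 in replicate 1 and 8.87 in replicate 2, while Pdgfb was higher in replicate 1. Ptprb, an endothelial phosphatase, was highest in PDAC replicate 3 (8.55). Platelet and megakaryocyte markers (5 measured of 8) had means of 5.72 and 6.35 in the normal ductal cultures and 5.32 to 5.76 in PDAC, with Ppbp at 7.54 and 8.48 and Itga2b at 6.28 and 6.00 in replicates 1 and 2 of normal ductal. Macrophage and leukocyte markers (10 measured) had means of 5.57 and 5.99 against 4.98 to 5.20, led by Cd68 (7.88 and 8.65, 7.59 to 7.77) and Cd14 (9.52 and 9.43, 5.82 to 7.92). Acinar markers (4 measured of 8) had means of 5.57 and 8.74 against 5.88 to 5.96, with the protease gene Ctrb1 at 6.08 and 12.26 and Cela1 at 6.05 and 7.28 in normal ductal. Mesothelial markers (6 measured) had means of 7.91 and 8.46 against 5.91, 6.64 and 9.43, led by Krt7, which the duct list holds too, and Msln. The part of these cells in the ligand values was not tested.

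Duct epithelial markers shared part of the order of Pdgfb and Pdgfd. Krt18 stood at 12.78 and 12.54 in the normal ductal cultures and at 7.49, 9.14 and 11.45 in PDAC, and Krt8 at 12.53 and 12.42 against 7.74, 8.93 and 10.45. The 10 measured duct markers had a median difference of -3.37, with 7 lower in PDAC without overlap and 0 higher, beside 12.8% lower and 13.6% higher over all genes. Like Pdgfb and Pdgfd, 9 of the 10 had the higher normal ductal signal in replicate 1, and 9 were highest among PDAC cultures in replicate 3. Over all genes, 6138 of 19938 were higher in normal ductal replicate 2, and 5309 were highest among PDAC cultures in replicate 3. The remaining genes were higher in normal ductal replicate 1 or equal in both, and 721 genes had the same value on all arrays. Lowest in PDAC replicate 1 were 9424 of all genes, and 4596 in replicate 2, with ties given to the smaller replicate number. Of the 10, 8 were lowest in PDAC replicate 1, and 2 in replicate 2, as Pdgfb and Pdgfd were, namely Cldn4 (7.87, 7.26 and 8.81) and Epcam (5.25, 4.84 and 7.60). Their part in the ligand values was not tested.

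**Figure D4:**
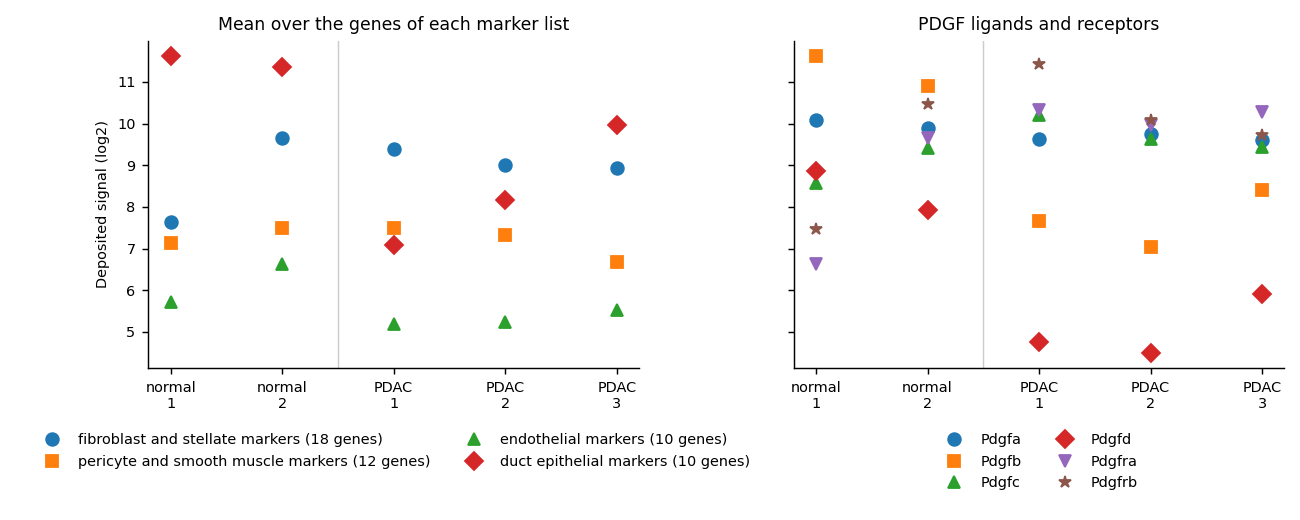
Mean log2 signal over 4 marker lists (left) and log2 signal of each PDGF gene (right) on the 5 arrays, 1 point per list or gene and array. The fibroblast list and both receptors are lowest in normal ductal replicate 1, and the duct list, Pdgfb and Pdgfd are higher in both normal ductal arrays than in any PDAC array; heights of different genes are not comparable.

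Genes with the most similar pattern were found by the root mean square difference between mean-centred log2 signals over the 5 arrays, a description in which arrays and not genes are the shared source. Pdgfb and Pdgfd were close to each other by this measure, at 0.19: among all other genes, each was the second nearest to the other. The nearest to Pdgfb was Ctsw (0.17), a cathepsin best known from cytotoxic lymphocytes, and Macc1, a regulator of Met expression, was next after Pdgfd at 0.23. The nearest to Pdgfd was Erbb3 (0.13), a receptor of the epidermal growth factor family, and Marveld2, a protein of tricellular tight junctions, was next after Pdgfb at 0.21. Erbb3 stood at 9.87 and 9.07 in the normal ductal cultures and at 5.77, 5.85 and 6.96 in PDAC cultures.

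The receptors had other neighbours. Pdgfra was followed most closely by the collagen gene Col1a1 (0.24), by Rcn3, a calcium-binding protein of the endoplasmic reticulum (0.28), and by the secreted glycoprotein gene Fstl1 (0.28). Col1a1 stood at 8.68 and 11.33 in the normal ductal cultures and at 12.37, 11.45 and 11.82 in PDAC. For Pdgfrb they were the collagen gene Col5a2 (0.24), the proteoglycan gene Vcan (0.29) and Aebp1 (0.30), whose product binds collagen. Between the receptors themselves the measure was 0.60. Pdgfc had Cavin3, a caveola protein (0.07), the basement membrane gene Nid1 (0.07) and the collagen-modifying enzyme gene Plod3 (0.09) as neighbours. Pdgfa, with an SD over all arrays of 0.20, was too flat for this measure to be informative.

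The proteases and binders that act on PDGF outside or inside the cell were examined as a list of 14 genes. Limma called 0 of them over all genes, 3 had an unadjusted p under 0.05, each lower in PDAC, and 5 of the 14 were lower without overlap and 0 higher. Over all genes 6.86% were lower at that unadjusted p and 12.8% were lower without overlap. Their median difference was -0.09, beside 0.01 over all genes. The lower members included proteases that activate the ligands. St14, which encodes matriptase, a membrane protease that can cut PDGF-D, stood at 11.73 and 11.04 in the normal ductal cultures and at 6.08, 6.13 and 7.37 in PDAC (difference -4.86, SE 0.53, adjusted p = 0.148). Plau, the urokinase gene whose product also activates PDGF-D, stood at 10.77 and 10.43 against 9.66, 9.39 and 7.60 (-1.72, SE 0.74, adjusted p = 0.463).

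Furin, the processing protease of PDGF-A and PDGF-B, gave the smallest p of the list. Its signal was 10.56 and 10.57 in the normal ductal cultures and 9.41, 9.51 and 9.43 in PDAC. Within each group the arrays lay close together and the groups were far apart (-1.11, SE 0.07, unadjusted p = 9.5e-05, adjusted p = 0.0977). Plat, the gene of the tissue plasminogen activator that frees PDGF-C, stood at 10.76 and 10.42 against 9.56, 9.46 and 10.65, so PDAC replicate 3 lay among the normal ductal values (-0.70, SE 0.45, adjusted p = 0.55).

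Binders of PDGF showed no common direction. Sparc, a matrix protein that binds PDGF-B, stood at 11.62 and 12.54 in the normal ductal cultures and 13.12, 12.53 and 12.70 in PDAC (0.70, SE 0.36, adjusted p = 0.541). Thbs1 (thrombospondin 1) stood at 13.19 and 13.27 against 13.13, 12.62 and 12.34 (-0.53, SE 0.26, adjusted p = 0.524). The co-receptor gene Nrp1 had a difference of 0.07 (SE 0.24, adjusted p = 0.922). Pdgfrl, which encodes a receptor-like protein without a kinase, ranged from 5.42 to 8.66 among the PDAC cultures alone (0.83, SE 1.11, adjusted p = 0.739).

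Downstream of the receptors, 30 of 36 listed signalling genes were measured. Limma called 0 over all genes, an unadjusted p under 0.05 was found for 2 higher and 3 lower genes, 16.7% of the list beside 13.4% over all genes, and the median difference was 0.05. The lipase gene Plcg1, which docks on activated receptors, had 0.63 (SE 0.10, adjusted p = 0.173) and the kinase subunit gene Pik3cb -0.70 (SE 0.14, adjusted p = 0.218). Pik3r2, a regulatory subunit of phosphoinositide 3-kinase, had 0.97 (SE 0.25, adjusted p = 0.278), and Pik3r1 and Sos1, also higher without overlap, had 0.35 and 0.39. Src (-0.41), Crk (-0.41) and Sos2 (-0.31) were lower without overlap, with adjusted p between 0.218 and 0.555. The share of genes whose groups did not overlap was 36.7% in this list and 26.4% over all genes.

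Among genes that attenuate the receptors, a pair had differences beyond -2. Of 15 measured, limma called 0 over all genes, 2 higher and 2 lower genes had an unadjusted p under 0.05, and the median was -0.10. Over all genes 6.5% were higher and 6.86% lower at that p, and the median was 0.01. Ptprj, a membrane phosphatase that removes phosphate from PDGF receptors, stood at 10.62 and 10.23 in the normal ductal cultures and at 8.30, 7.80 and 8.91 in PDAC (-2.09, SE 0.39, adjusted p = 0.208). Grb10, an adaptor that damps receptor kinases, had -2.13 (SE 0.55, adjusted p = 0.282) and the ubiquitin ligase gene Cbl -0.47 (SE 0.25, adjusted p = 0.55). In the other direction, the phosphatase gene Ptpn1 had 0.43 (SE 0.10, adjusted p = 0.252) and Socs3, a feedback inhibitor of cytokine signalling, 1.10 (SE 0.32, adjusted p = 0.309).

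Genes known to respond when fibroblasts are given PDGF (27 measured of 28) had a median difference of -0.33. Limma called 0 over all genes, 4 were lower and 0 higher at an unadjusted p under 0.05 (14.8% of the list, beside 6.86% lower and 13.4% in either direction over all genes), and 7 were lower and 0 higher without overlap, 25.9% of the list, beside 12.8% lower and 13.6% higher over all genes. Sphk1, the kinase that makes sphingosine 1-phosphate, stood at 8.16 and 8.34 in the normal ductal cultures and 7.01, 6.88 and 7.20 in PDAC (-1.22, SE 0.13, adjusted p = 0.148). The urokinase receptor gene Plaur had -1.02 (SE 0.33, adjusted p = 0.341), the prostaglandin synthase gene Ptgs2 -1.05 (SE 0.74, adjusted p = 0.553) and Ier3 -0.68 (SE 0.24, adjusted p = 0.365). Several of these genes also respond to serum and to handling, and for 5 of the 27 normal ductal replicate 2 exceeded replicate 1 by more than 1.

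The relatives of PDGF, namely the vascular endothelial growth factors (VEGFs), their receptors and the kinases and ligands of the Kit family, gave 2 higher and 5 lower genes without overlap among 15 measured, beside 13.6% higher and 12.8% lower over all genes. Their median difference was -0.34, and it was -0.06 against normal ductal replicate 1 alone and -0.39 against replicate 2 alone. Limma called 0 over all genes, and an unadjusted p under 0.05 was found for 1 higher and 1 lower gene, 13.3% of the list beside 13.4% over all genes. Vegfd, whose product acts on lymphatic and blood vessel receptors, stood at 5.36 and 6.92 in the normal ductal cultures and at 9.92, 8.98 and 8.55 in PDAC (3.01, SE 0.69, adjusted p = 0.244), the opposite direction to Pdgfd. Its receptor gene Flt4 stood at 9.09 and 7.30 against 5.12, 5.31 and 6.79 (-2.46, SE 0.84, adjusted p = 0.357). Also lower without overlap were the receptor genes Kdr (-1.23) and Kit (-1.19) and the ligand gene Vegfc (-0.94), and Vegfb had 0.63, with adjusted p between 0.41 and 0.55. Of the endothelial markers, 8 of 10 had the higher normal ductal signal in replicate 2, as did Kdr (7.71 against 6.21) and Vegfc (9.41 against 7.86).

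**Figure D5:**
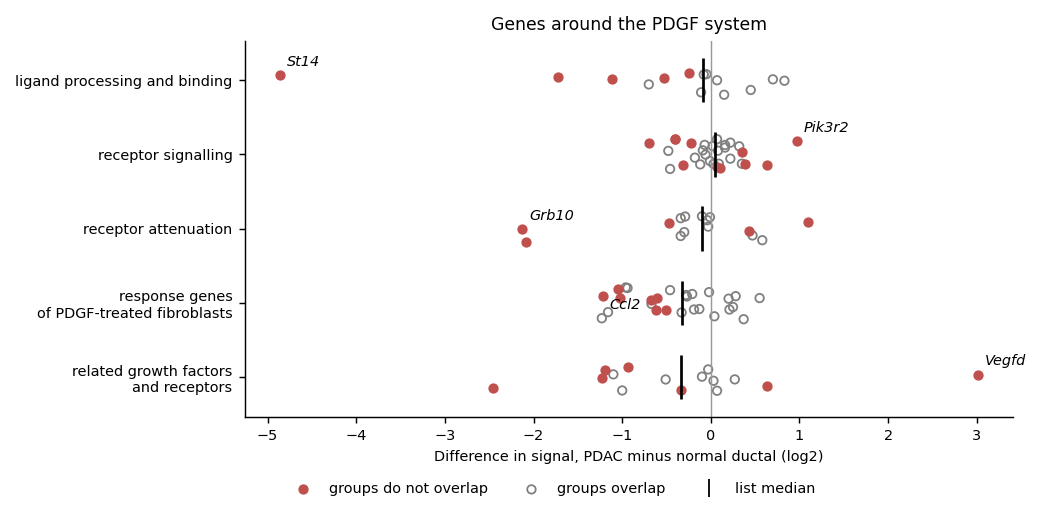
Difference in log2 signal between PDAC and normal ductal means (horizontal axis) for every measured gene of 5 lists around the PDGF system; filled points are genes whose groups do not overlap, open points overlap, black bars are list medians, and vertical scatter within a list only separates points. List medians lie between -0.34 and 0.05, and single genes such as St14 (-4.86) and Vegfd (3.01) lie far from them.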

How the data were processed

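Total RNA was amplified and biotin-labelled for whole-transcript arrays of Affymetrix, per the labels' protocols. The authors deposited log2 signals for 35556 probe sets, the log2 scale being read from their range (0.727 to 13.9), made with Transcriptome Analysis Console 1.0.0.234 and the mm10 build, per the submitters' processing notes. How background was corrected and arrays were normalized is not given in the sources used here. Of the probe sets, 21789 had 1 gene symbol in the platform annotation, 1621 several and 12146 none here; 21698 were matched by Entrez identifier to RefSeq (GRCm38.p6). For each gene the probe set with the highest mean was kept, which left 19938 genes.

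The test was limma's moderated test (version 3.58.1, R 4.3.3; lmFit, then eBayes with trend, two-sided), adjusted by Benjamini-Hochberg over the 19938 genes, at a threshold of 0.05. Lists were described by counts and medians with no set test. Members and lists were chosen with earlier results of these data known. By rule the text names the PDGF genes, known PDGF binders and processors, Apc, the 3 nearest patterns of members with an SD above 0.5, the 2 smallest p of each pathway list and up to 4 of its genes a direction with the largest differences that part the groups (a group mean above 6.61), and the 2 strongest genes of each marker list.

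Promoter windows came from RefSeq (4 members matched; Pdgfb had no entry and chromosome 18 was left out). On simulated data for this comparison (20 runs, 19938 genes, 200 changed) the test called 35.9%, 59.3% and 84.9% of genes changed by 1, 2 and 4, with 5.27% false calls. The changed genes were drawn from all genes with any spread, and the noise was normal and independent between genes. These shares therefore do not say how often a change in a PDGF gene would be called. Figures used Python 3.11.15 and matplotlib 3.10.9. Alternatives were other scalings, filters, variance models, probe set rules, array weights, a replicate block, another threshold and leaving out each culture.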

Additional observations from a re-analysis of the deposited data

How the results depend on the processing

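Of the 6 PDGF genes, 5 kept their direction under every alternative run, and the differences of Pdgfb (-3.93 to -3.19) and Pdgfd (-3.79 to -2.86) had an unadjusted limma p under 0.05 in each, with adjusted p from 0.0644 to 0.44 and from 0.0808 to 0.44; Pdgfd was not among the genes kept when the lowest 50% were left out. Each PDGF gene had 1 probe set, so the probe set rules could not change its difference, and neither could the variance models or gene filters. Only the scalings, array weights, replicate block and left-out cultures could move a direction. Leaving out 1 culture moved Pdgfra between 0.53 and 3.56 and Pdgfrb between -0.05 and 2.96, the extremes being the fits without normal ductal replicates 1 and 2. Pdgfra passed the threshold only without replicate 2 (adjusted p = 0.027), and Pdgfrb turned to -0.05 without replicate 1. Over all genes, limma called 1 higher and 10 lower, against 10 and 32 after quantile normalization, 23 and 57 at a common array median (which moved the median of all genes to 0.10), 3 higher without the lowest 25% of genes, 15 and 27 without the lowest 50%, 0 and 3 with array weights, and 6 and 19 at a threshold of 0.10. With the replicate block limma called 0 and 0 (1104 and 1110 at an unadjusted p under 0.05). Pdgfb then had -3.91 and Pdgfd -3.75 (limma adjusted p = 0.44 for both). PDAC replicate 3 has no same-numbered normal ductal culture, so the block gave the same differences as leaving that culture out. Deviations of same-numbered cultures had correlations of -0.18 and -0.04. With 2 normal ductal arrays the deviations mirror each other, so these values cannot tell whether same-numbered cultures share an animal or batch. The labels state no such link, and the block changed no call of a PDGF gene. Leaving out 1 culture gave 0 to 980 higher and 0 to 865 lower genes, with 0 by limma without PDAC replicate 1, 2 or 3 (unadjusted p under 0.05: 955, 934 and 1416 higher, then 994, 1061 and 1335 lower), 980 and 307 without normal ductal replicate 1, and 125 and 865 without replicate 2. The cause of these changes was not tested. Signal over background was not given, which limits what can be said of Pdgfd in PDAC.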
